A study of Drosophila melanogaster with 2 samples.

Results

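The 200 strongest peaks of a chromatin immunoprecipitation sequencing (ChIP-seq) experiment on the Drosophila melanogaster protein CG7987 were described against the other 4210 peaks of the same list. They are the first 200 of 4410 peaks that the authors kept by irreproducible discovery rate (IDR), a measure of how well peak ranks repeat between replicates, after ranking by the signal value of each peak. The members were selected on that pooled signal, so their signals, widths and replicate ranks are given as description only. The experiment has 1 group, CG7987-GFP embryos of pooled male and female sex collected at 0 to 24 h, in 2 biological replicates. The line stably expresses CG7987 with GFP fused to its C-terminal end. Both replicates carry the same donor label, so they are 2 collections from 1 line. The assay and antibody labels name ChIP for CG7987, whereas a line of free text calls the same libraries an input control. Below they are taken to be ChIP, an assumption that the peak lists cannot check. Library depth is unknown, as the lists hold no read counts.

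A transcription factor is recovered by ChIP where it, or a partner it is bound to, can be cross-linked to DNA, and many factors favour short sequence words. The word CACGTG is an E-box, bound in flies by basic helix-loop-helix factors such as Myc with Max, Clock with Cycle, and Mondo with Mlx, the last pair being a sensor of intracellular sugars. The core ACGTG is known from hypoxia response elements bound by Sima with Tango, and CCGGAA is the core of sites for ETS factors. In whole embryos a peak averages over all cell types, and a strong peak in few cells cannot be told apart from a weak one in many. Words and positions were not used to choose the members and could therefore be tested.

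The sequences around 8 of the 18 members that hold an E-box CACGTG within 50 bp of the summit are shown because this word was called both among the fixed motifs and among all 6-mers. All are on the plus strand of dm6, from the RefSeq genome sequence, and capitals mark the E-box. In the first 6 sequences the word is flanked by T on its left and A on its right.
cbt, rank 2 (chr2L:481274-481303): cctcatgatgttCACGTGaacatttgttga
cbt, rank 3 (chr2L:479182-479211): gcatgcggtgttCACGTGaaagcgtgttgg
CG3348, rank 15 (chr3R:27293185-27293214): gcgaacttcattCACGTGatcacgcggtgg
Pect, rank 41 (chr2L:13205474-13205503): gtccgcaaacatCACGTGattctggcatgc
bmm, rank 100 (chr3L:14781344-14781373): aataaaaaacatCACGTGatattgtggttg
Gbs-70E, rank 121 (chr3L:14545266-14545295): ttccgatcgattCACGTGatctttgcatga
RpL7, rank 18 (chr2L:10201008-10201037): tggcgcgcgtgtCACGTGtgcacgcatttc
Pdp1, rank 37 (chr3L:7867506-7867535): gcagaatgtaatCACGTGgtctttatcttc

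For the ETS word CCGGAAG, 3 of the 5 members that hold it are shown, with the word in capitals and each read on the strand that spells it.
jp, rank 9 (chr2L:9567460-9567488, plus strand): tcaaatctataCCGGAAGtagcatgcgcc
yps, rank 21 (chr3L:12125129-12125157, plus strand): gttcgcaagctCCGGAAGtgaaacatgac
Uck, rank 190 (chr3R:24290105-24290133, minus strand): ccacggttactCCGGAAGtaaagcgttgc

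The 101 bases centred on 4 of the strongest summits show what such a window holds. Capitals mark the E-box, the ETS core and the words ACGTGA and ATCACG, each on either strand. The rank 2 summit holds an ATCACG beside its E-box, the larp summit holds a single ACGTGA, and the windows at sima and CG14100 hold none of them.
cbt, rank 2 (chr2L:481243-481343, plus strand): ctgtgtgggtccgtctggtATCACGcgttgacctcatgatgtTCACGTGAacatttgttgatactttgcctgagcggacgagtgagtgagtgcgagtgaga
larp, rank 5 (chr3R:28326379-28326479, plus strand): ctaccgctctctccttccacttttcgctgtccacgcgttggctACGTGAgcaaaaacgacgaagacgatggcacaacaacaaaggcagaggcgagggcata
sima, rank 6 (chr3R:30103013-30103113, plus strand): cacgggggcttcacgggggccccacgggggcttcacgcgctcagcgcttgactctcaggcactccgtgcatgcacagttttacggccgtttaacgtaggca
CG14100, rank 11 (chr3L:19590571-19590671, plus strand): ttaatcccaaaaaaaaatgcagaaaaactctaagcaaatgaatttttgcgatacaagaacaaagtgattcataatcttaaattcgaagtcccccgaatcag

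The signal of the members ran from 612 to 11622 with a median of 797, and that of the other rows from 139 to 612 with a median of 197. The scale is that of the authors' peak caller, for which no description was at hand. The decline was steep at the top: 4 members exceeded 5000, 9 exceeded 2000 and 54 exceeded 1000. By rank 20 the signal was 12.7% of the highest, and at rank 200 it was 5.26%.

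**Figure D1:**
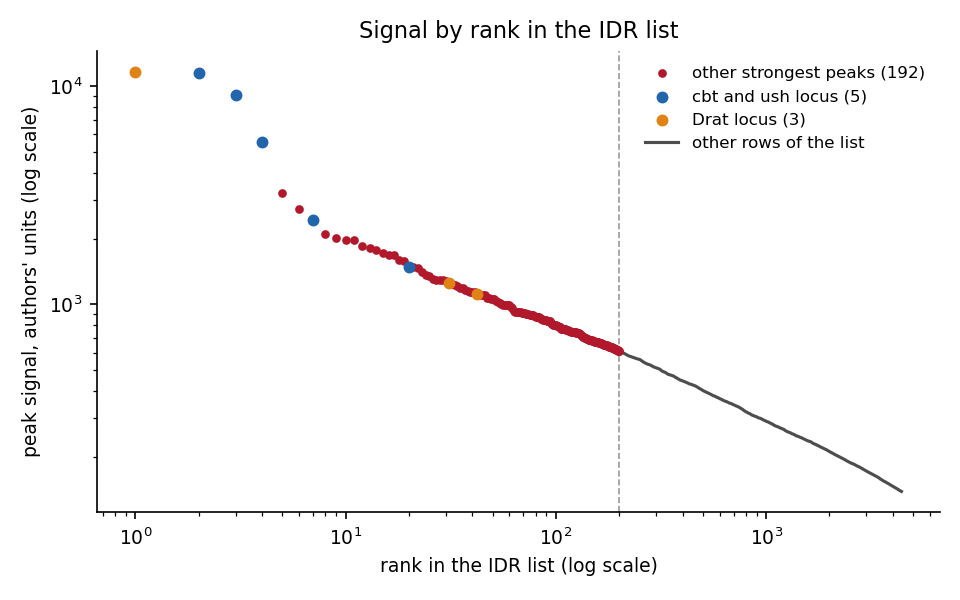
Signal of each IDR peak in the authors' units against its rank, both on log scales, with the 200 strongest peaks as points and a sample of the others joined as a line. The first 4 ranks lie at Drat and next to cbt, above 5000, and the dashed line marks the end of the 200, where the signal is 612 on both sides.

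Only a pair of loci supplied the first 4 ranks, counting as a locus every run of IDR peaks spaced by at most 5 kb. The first is Drat, which encodes a protein of the alcohol dehydrogenase type linked to cell death. Its strongest summit lay inside the gene, 61 bp upstream of an annotated start site (TSS). It had a signal of 4988 in replicate 1 and 6521 in replicate 2, and 11622 in the pooled list. A pair of further Drat summits, in the same peak interval, ranked 31 and 42 and lay 246 and 446 bp upstream of another annotated TSS of Drat. The Drat locus covers 7525670 to 7533443 on 2R and holds 7 IDR rows, of which 3 are members.

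The second locus lies on 2L from 478643 to 490347, a stretch of 11705 bp with 11 IDR rows and 5 members, at ranks 2, 3, 4, 7 and 20. It contains cbt (cabut), a zinc finger transcription factor that responds to sugar, and ush (u-shaped), a cofactor of GATA factors. The rank 2 summit lay in an intron of ush, 1605 bp upstream of cbt, with a signal of 4724 in replicate 1 and 6853 in replicate 2. The rank 3 summit lay in the 5′ UTR of cbt, 502 bp downstream of its TSS, with a signal of 3732 in replicate 1 and 5306 in replicate 2. The rank 4 summit, 622 bp upstream of cbt, had a signal of 3248 in replicate 1 and 2484 in replicate 2. Thus 3 of these summits share 1 peak interval and are not independent peaks. In all, the 200 members fell in 194 intervals and 185 loci, and 174 of these loci held a single member.

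Other strong sites followed. A summit inside larp, which encodes an RNA-binding La-related protein, ranked 5 with a pooled signal of 3224, and ranked 5 in each replicate. It lay 165 bp upstream of an annotated TSS within the gene. A second larp summit in the same interval, 368 bp upstream of that TSS, ranked 23, and both larp summits match 1 and the same replicate 1 peak. The rank 6 summit, at 2737, lay in an intron of sima, the fly hypoxia-inducible factor alpha subunit, 3543 bp from the nearest TSS. An intron of sbb (scribbler) held the rank 8 summit, at 2109 and 20105 bp from the nearest TSS, the farthest of all members. The rank 9 summit lay 756 bp upstream of jp, which encodes junctophilin, in intergenic sequence. The noncoding gene lncRNA:CR31840 followed at rank 10, with a signal of 1972. Next came CG14100, the UDP-galactose transporter gene Ugalt, CG11050 and the mannosyltransferase gene Alg3, at ranks 11 to 14 with signals of 1774 to 1969. CG3348 at rank 15 and sp3 at rank 17 gave the strongest intergenic summits after jp, 1020 bp and 548 bp upstream of their nearest TSS. The chaperone gene Hsp83 ranked 19, with a summit inside the gene, 89 bp upstream of an annotated TSS. The Polycomb gene ph-p, on X, ranked 27 with a summit inside the gene, 497 bp upstream of an annotated TSS.

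The annotation class of the strongest peaks differed little from that of the rest. The promoter window, within 500 bp of any annotated TSS, held 119 of 200 members (59.5%, exact 95% interval 52.3 to 66.4) and 2441 of 4210 other rows (58.0%). The odds ratio was 1.06, with an adjusted p of 0.714 in a two-sided Fisher's exact test. Introns held 54 members (27.0%) and 30.4% of the others, and intergenic sequence held 21 members (10.5%) and 8.79% of the others. Exons outside promoter windows held 6 members (3.0%) and 121 others (2.87%). These 6 included 5′ UTR summits at cbt and CG11050, and coding exon summits in otp, nearest to the TSS of Cib2, and in Pde1c, nearest to that of CycY. The remaining 2 lay in exons of lncRNA:CR44468 and lncRNA:CR44619. Of the 7 classes tested, 0 (0%) passed the adjusted threshold of 0.05, and 0 had an unadjusted p under 0.05. The intervals are wide enough to hold moderate differences in either direction. The promoter share also depended on the replicate. Among the 200 strongest peaks of replicate 2 alone it was 64.5%, against 56.0% of the other peaks to rank 4410 (odds ratio 1.43, exact p = 0.0194). Among the 200 strongest of replicate 1 alone it was 52.5%, against 59.7% of its others (odds ratio 0.746, exact p = 0.0465). These p-values are unadjusted, and 0 of the 7 classes passed the adjusted threshold in either replicate alone.

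**Figure D2:**
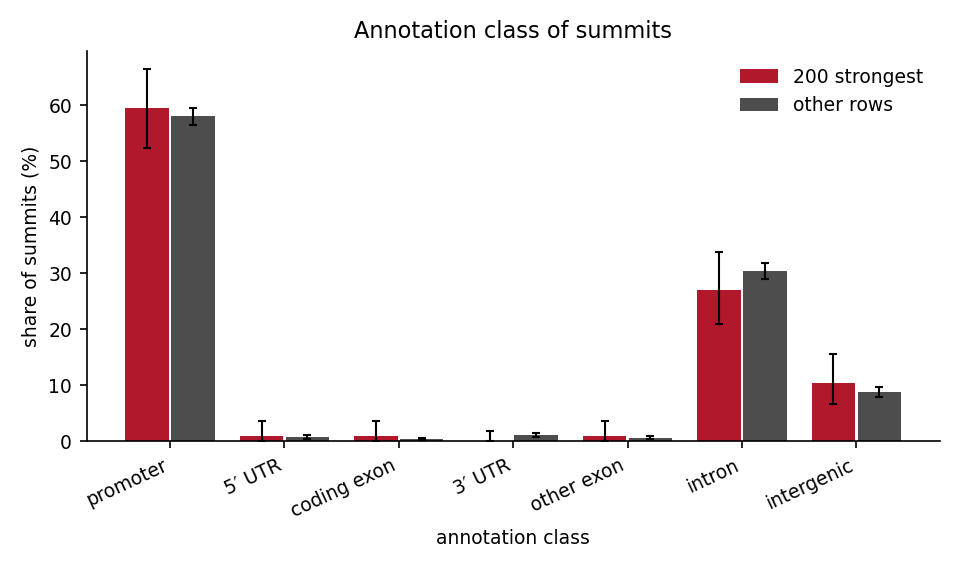
Share of summits in each annotation class in percent, for the 200 strongest peaks (red) and the other 4210 rows (grey), with exact 95% intervals as error bars. Promoter windows hold 59.5% of the strongest and 58.0% of the others, and the intervals overlap in each of the 7 classes.

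Among promoter summits the strongest lay more often upstream of the nearest TSS. That is the nearest annotated TSS of any transcript, so an upstream summit can still lie inside the gene, as at Drat and larp. This was so for 95 of 119 members (79.8%) and 1607 of 2441 others (65.8%), an odds ratio of 2.05 with an exact p of 0.00137. This share was chosen after its values were seen, and its p adjusted over the 5 shares tested, of which 2 had been planned, was 0.00687. Without ribosomal protein promoters the odds ratio was 2.49. TSSs on both strands lay within 500 bp of 44 of 119 promoter members (37.0%) and 29.2% of the promoter others. That difference missed the threshold (odds ratio 1.42, exact p = 0.0800, and 0.119 adjusted over the 5 shares). Without the Drat locus the odds ratio was 1.48, with an unadjusted exact p of 0.0481. Another IDR summit lay within 5 kb of 137 members (68.5%) and 58.9% of the others, an odds ratio of 1.52 with an exact p of 0.00641. The difference was not called when the distance was 1 kb (exact p = 0.105) or 10 kb (exact p = 0.0627).

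The X chromosome held 14 members (7.0%), against 591 of the other rows (14.0%), an odds ratio of 0.461 with an adjusted p of 0.0187 over 6 arms by Fisher's exact test. Embryos of mixed sex carry fewer X copies than autosomes. When X signals were divided by 0.75 before the 200 were taken, a choice made after seeing the data, the direction reversed. The odds ratio was then 1.67 (Fisher's exact test, adjusted p = 0.0367). The part of X copy number in the X share was not tested. The X difference was also lost among the first 400 rows, at an odds ratio of 0.934, and in either replicate alone. Chromosome 4 held 3 members, next to zfh2, at RpS3A and next to lncRNA:CR43437, which was 1.5% of the members and 0.309% of the others (Fisher's exact test, adjusted p = 0.0997).

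Cytoplasmic ribosomal protein genes, which encode the structural proteins of the ribosome, made up the largest group of member promoters among the 23 gene lists. Of 92 such genes, 26 (28.3%) had a member within 500 bp of a TSS, which is 35.6% of the 73 that had any IDR summit there. Over the whole annotation 169 of 3132 genes with an IDR summit at a TSS (5.4%) had a member there. Seen from the peaks, 26 members (13.0%) and 53 others (1.26%) lay at a ribosomal protein promoter. The strongest was RpS27, at rank 16 with a pooled signal of 1687, and with 767 in replicate 1 and 964 in replicate 2. RpL7 at rank 18 had a pooled signal of 1594, followed by RpL14, RpL13A and RpS4 with 1225, 1062 and 1056. These summits sat close to the start sites: all 26 lay from 64 bp upstream to 22 bp downstream, and 21 were within 50 bp. Of the 93 members at other promoters, 19 were within 50 bp, and their median position was 105 bp upstream. As promoters on both strands share peaks, a summit can count for a neighbour as well, as at RpL13 and Dref, which lie head to head around the rank 65 summit.

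Other genes of protein synthesis were fewer. Counts below are over the genes with an IDR summit at a TSS, for which the share over all genes is the same 5.4% (0.930% of all 18164 genes, with or without a summit). Mitochondrial ribosomal protein genes had 4 of 23 with a member (17.4%), mRpS23, mRpL41, mRpS10 and mRpL23, at ranks 30, 38, 47 and 170. Translation factor genes had 4 of 22 (18.2%), namely eEF1gamma at rank 60, eIF6 at 83, eIF1 at 91 and eIF4EHP at 145. The eIF1 summit is the one at RpL28, 339 bp from the eIF1 TSS. Rack1 at rank 176 and Nacalpha at rank 178, which encode proteins that work at the ribosome, were in no list and were noticed after their values were seen. Small nucleolar RNA genes had 4 of 23 with a member (17.4%), all near 3 peaks that also lay at the host gene Uhg4, at RpL14 or at RpL28. Among tRNA genes 2 of 27 had a member (7.41%). With counts this small no list was tested.

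Among regulators of chromatin and transcription, ph-p and brm, the ATPase of the Brahma remodelling complex, had members within 500 bp of a TSS. They were 2 of 14 Polycomb and trithorax genes with an IDR summit there. The brm summit, at rank 185, lay 158 bp from the brm TSS but nearer to that of Arl1, at 108 bp. Chro and Dref were 2 of 8 among insulator and architectural proteins. Chro, a chromodomain protein of interbands, ranked 43 with a signal of 1114. The bZIP genes Pdp1, a regulator of metabolism and of the circadian clock, and Atf3 ranked 37 and 133, 2 of 10 on that list. The nuclear receptor gene ERR, which regulates carbohydrate metabolism in fly larvae, ranked 168. None of the 14 genes for E-box binding factors with an IDR summit at a TSS had a member there, but Mondo, sim and sima each had 1 farther inside the gene. Likewise InR, crc, Trl, trx, ush and cbt held members inside the gene but not within 500 bp of a TSS. Of 128 long noncoding RNA genes with an IDR summit at a TSS, 7 (5.47%) had a member there, close to the 5.4% over all genes. Rab GTPase, proteasome, Hox, segmentation and microRNA genes had 0 members at a TSS or inside the gene. Only 7, 7, 0, 6 and 10 of these genes, in that order, had any IDR summit at a TSS. These are too few to set 0 apart from the 5.4% over all genes.

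The genes in the following sentences were picked after their values were seen, and apart from Mondo they are in no gene list. They are examples and not a tested group. Mondo, the sugar-sensing partner of Mlx, held the rank 68 summit 1303 bp downstream of a TSS, with a signal of 917. Introns of Desat1, an acyl-CoA desaturase, of PyK, pyruvate kinase, of bmm, the triglyceride lipase brummer, and of FASN1, a fatty acid synthase, held summits at ranks 51, 94, 100 and 124. Pect, an enzyme of phosphatidylethanolamine synthesis, held the rank 41 summit with a signal of 1132. The rank 52 summit lay 718 bp upstream of Gpo1, which encodes glycerol-3-phosphate dehydrogenase of mitochondria. At promoters, sug (sugarbabe), a transcription factor induced by sugar, ranked 36, Gapdh2 ranked 77, Got2 ranked 80 and AcCoAS ranked 167. The 54 intron members lay at a median of 1720 bp from the nearest TSS, 14 within 1 kb and 13 beyond 5 kb. No count or comparison of metabolic genes was made.

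Some words differed in frequency between the strongest summits and the rest, though each was present at a minority of members. The E-box CACGTG lay within 50 bp of 18 members (9.0%) and 124 of 4210 others (2.95%). The odds ratio was 3.26 with an adjusted p of 0.00136 over 23 motifs by two-sided Fisher's exact test, as for the other words. Non-overlapping windows of the same 101 bp across the chromosome arms held it in 1.17%. In the first 100 rows the share was 11%, and in the first 400 it was 6.5%. Outside promoter windows 12 of 81 members (14.8%) and 57 of 1769 others (3.22%) had it, an odds ratio of 5.22 with an adjusted p of 5.84e-04. Inside promoter windows the shares were 5.04% and 2.74%, with an adjusted p of 0.595. Whether the odds ratio differed between the classes was not tested. Without both strong loci the odds ratio was 2.59, and it was 3.27 in each replicate alone. Among the 23 motifs, which were chosen with earlier results of these data known, the call was kept in 12 of 13 alternatives. Among 2080 6-mers, where the adjustment is heavier, the same word was called in the full list and in 2 of 13 alternatives.

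The 18 E-box members were Drat, 3 summits next to cbt, CG3348, RpL7, Pdp1, Pect, lncRNA:CR44468, RpL24, bmm, lncRNA:CR44526, RpL11, Gbs-70E, E23, an intron of InR, an intron of Glut4EF, and Bmcp. Their E-box lay at a median of 17.5 bp from the summit, against 20 bp for the others. The word was flanked by T and A, as in the first 6 sequences printed, in 7 of the 18 members (38.9%) and in 8 of 124 others (6.45%). The seventh was the exon of lncRNA:CR44468. This flank was picked after seeing the sequences and was not tested.

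All 6-mers were then searched. Of 2080 6-mers, merged with their reverse complements, 4 (0.192%) were more frequent at the members at an adjusted p under 0.05, and 0 were less frequent. ACGTGA was found at 23 members (11.5%) and 134 others (3.18%), an odds ratio of 3.95 with an adjusted p of 8.21e-04. ATCACG was likewise found at 23 members (11.5%), against 153 others (3.63%), with an adjusted p of 0.00321. CACGTG and CCGGAA had an adjusted p of 0.0306 each by Fisher's exact test. CCGGAA was at 9.0% of the members and 2.90% of the others. The 101 bp windows across the arms held CCGGAA in 3.07%, ACGTGA in 2.14% and ATCACG in 2.19%. Both ACGTGA and ATCACG can overlap an E-box, so these results are not independent. ACGTGA stood at larp, Desat1, RpL13 and RpS28b without CACGTG, and ATCACG at Mondo, FASN1, Got2 and ERR. These 4 words were not stable in number: leaving out the locus at cbt left ACGTGA and ATCACG, replicate 2 alone gave ATCACG only, and replicate 1 alone gave 15 words.

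Of the 23 fixed motifs, 4 (17.4%) were called. Besides the E-box these were the hypoxia core ACGTG, the ETS word CCGGAAG and the CA repeat. ACGTG lay near 41 members (20.5%) and 11.3% of the others, with an adjusted p of 0.00302, but 18 of the 41 were E-boxes. The call was lost in 5 of 13 alternatives, among them replicate 2 alone (adjusted p = 0.158, Fisher's exact test) and without ribosomal protein promoters (0.0775). An ACGTG with no E-box in the window was found at 23 members (11.5%) and 351 others (8.34%). The ETS word lay near 5 members (2.5%) and 18 others (0.428%), an odds ratio of 5.97 with an adjusted p of 0.0241, at jp, Alg3, yps, RpL31 and Uck. This call was lost in 6 of 13 alternatives, among them replicate 2 alone (adjusted p = 0.0592, Fisher's exact test) and without ribosomal protein promoters (0.0775). The CA repeat was at 1 member (0.5%) and 165 others (3.92%), with an adjusted p of 0.0388 by Fisher's exact test. This call was lost in 10 of 13 alternatives, among them without the cbt locus. The 101 bp windows across the arms held ACGTG in 8.20%, the ETS word in 0.594% and the CA repeat in 2.09%. The DNA replication-related element was at 9 members (4.5%) and 2.71% of the others and was not called.

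**Figure D3:**
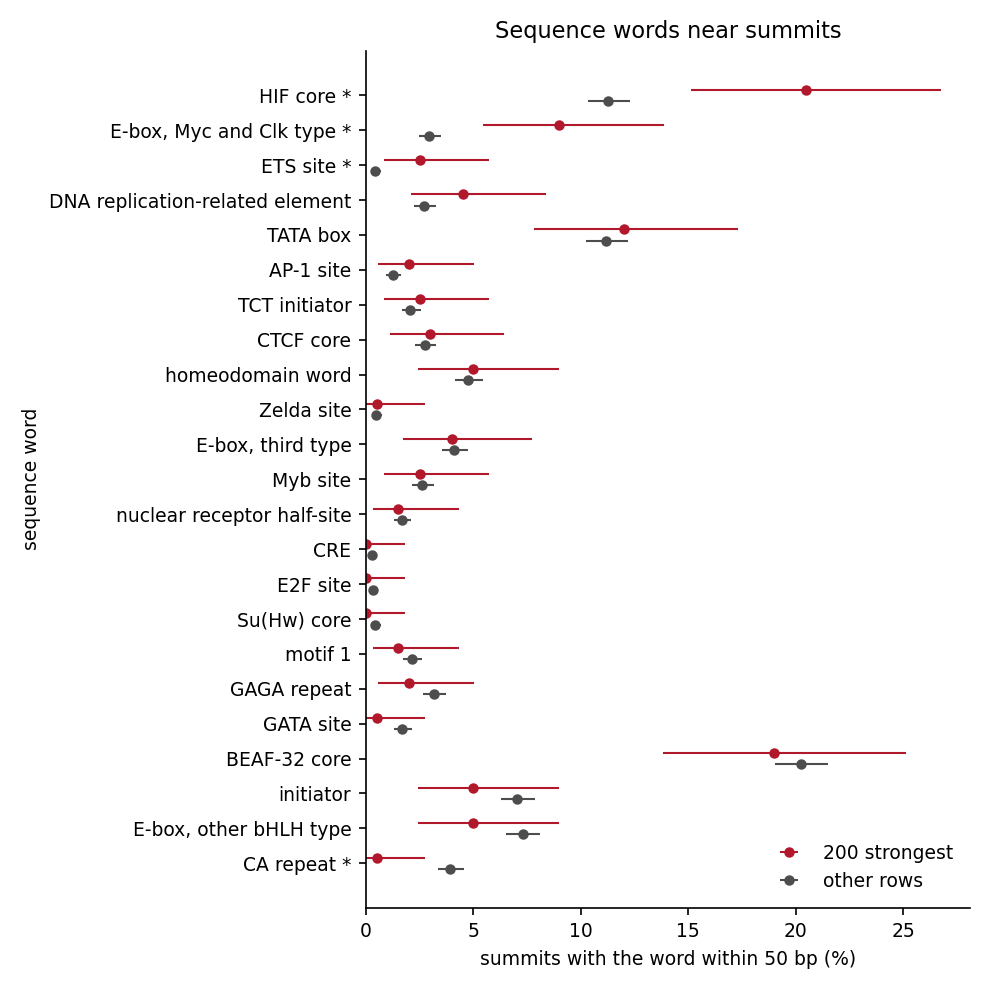
Share of summits in percent with each of 23 sequence words within 50 bp, for the 200 strongest peaks (red) and the other 4210 rows (grey), with exact 95% intervals. Asterisks mark an adjusted p under 0.05: the Myc and Clk type of E-box (CACGTG) is at 9.0% of the strongest and 2.95% of the others, and the CA repeat at 0.5% and 3.92%.

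Within promoter windows alone the called 6-mers were others. AGTTGG was at 23 of 119 promoter members (19.3%) and 157 of 2441 promoter others (6.43%), an odds ratio of 3.49 with an adjusted p of 0.00918 by Fisher's exact test. It stood at 11 ribosomal protein promoters among those 23, and at 4 among the 157. AACCCC was at 11 promoter members (9.24%) and 46 others (1.88%), with an adjusted p of 0.0430. Only 1 of these 11 was a ribosomal protein promoter, and the rest included CG1888, CHMP2B, CG5611 and Hsp27.

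Each member was matched to the overlapping peak with the nearest summit in the candidate list of each replicate. All 200 had a match in both lists. Of the 200, 145 ranked within the first 200 of replicate 1, 169 within the first 200 of replicate 2, 114 (57%) in both and 0 in neither. The median rank was 107.5 in replicate 1 and 100.5 in replicate 2, but the tail was longer in replicate 1, where 11 members ranked beyond 1000 and the last at 7291. In replicate 2 the last ranked 453. The 5 strongest members held the first 5 ranks of both replicates.

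The kinds of members leaned to different replicates. Ribosomal protein promoters had a median rank of 70 in replicate 1 and 120.5 in replicate 2, and 21 of the 26 ranked better in replicate 1. The 93 other promoter members had a median of 148 in replicate 1 and 81 in replicate 2, and 61 of them ranked better in replicate 2. Members outside promoter windows had medians of 102 and 127 in replicates 1 and 2, with 51 of 81 better in replicate 1. At the extreme, the summit at CG18428 and eIF4EHP ranked 7291 in replicate 1 and 72 in replicate 2. An intron of CG9837 ranked 4961 and 70, Pal1 1341 and 49, Sox14 1793 and 87, and CG31145 1440 and 82 in replicates 1 and 2. In the other direction FASN1 ranked 48 and 325, RpL27A 67 and 453, the Pde1c exon 44 and 290, RpS4 22 and 115, and RpL28 33 and 168.

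**Figure D4:**
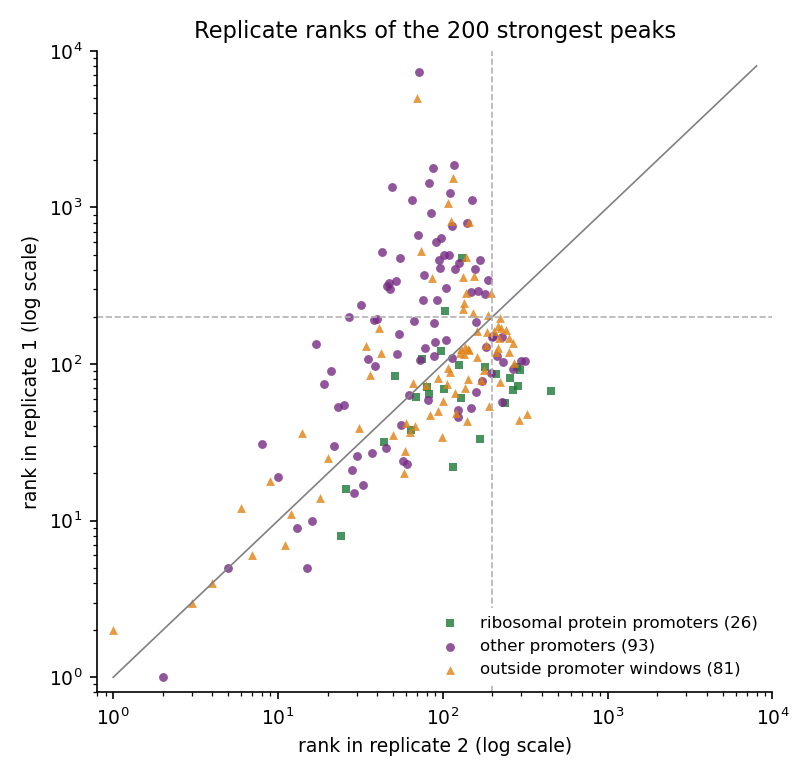
Rank of each of the 200 strongest peaks in replicate 1 against its rank in replicate 2, both on log scales, coloured by the kind of site. The solid line marks equal ranks and the dashed lines rank 200. Other promoters reach rank 7291 in replicate 1, while 21 of 26 ribosomal protein promoters lie below the line of equal ranks.

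Base composition moved with this difference. The 103 members that ranked better in replicate 1 had a median of 46.5% G and C within 50 bp of the summit, and the 94 that ranked better in replicate 2 had 33.7%. For 30 members the replicate 2 rank was at least 5 times better, with a median of 28.2% G and C, whereas 5 members had a replicate 1 rank at least 5 times better, with a median of 51.5%. Across the 200 members Spearman's rho between G and C and the ratio of the replicate 1 rank to the replicate 2 rank was -0.66, as a description of points that share the same 2 libraries. It was -0.74 at the 93 other promoters, -0.48 outside promoter windows and -0.09 at the ribosomal protein promoters, and -0.54 across 4142 of the other rows. Ribosomal protein promoter members had a median of 51.5% G and C, and the other promoter members 37.6%. The part of base composition in the replicate ranks was not tested.

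**Figure D5:**
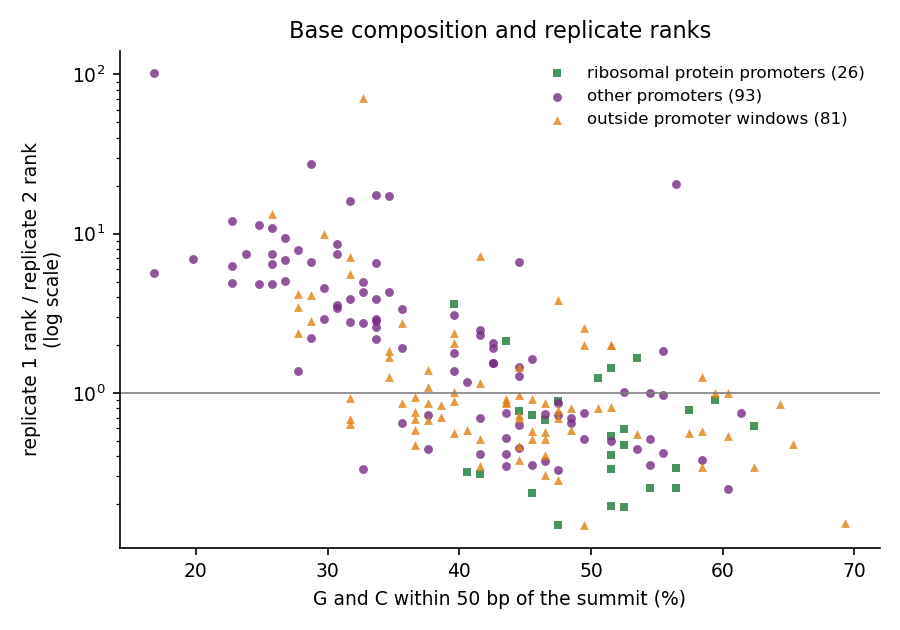
Ratio of the replicate 1 rank to the replicate 2 rank (log scale) against the percentage of G and C within 50 bp of the summit, for the 200 strongest peaks coloured by kind of site. Points above 1 ranked better in replicate 2, and members at 5 times or more have a median of 28.2% G and C.

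The end of the 200 is not a step. Hsp27, wun and CG31816, the last 3 members, had signals of 613.2, 611.9 and 611.7. RpL37A, CG16779 and REPTOR, the next 3 rows, had 611.7, 611.3 and 611.2. At the CG7987 gene itself, on 3R from 14570472 to 14575887, 0 members lay within 20 kb, and the nearest IDR row, ranked 1085, was 11903 bp away.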

How the data were processed

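ChIP-seq peak lists of 2 biological replicates of CG7987-GFP embryos were used, on dm6 per the labels. Per the deposited readme texts, the authors called candidate peaks for each replicate and for both pooled, each against 1 control library, and derived the IDR list from these. Each candidate list holds 30000 peaks and 1 replicate 1 peak outside the arms was left out. The names of aligner and peak caller and the IDR cutoff were not given in the sources used here. Peaks were ranked by the deposited signal value, because the −log10 q-value deposited for the IDR list is the same, 4.04, in all rows. Chromatin fragments were in the range 200 to 800 per the labels.

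Summits were classed against Ensembl 115 (BDGP 6.54) and the RefSeq sequence, into 7 classes in a fixed order, starting with a 500 bp promoter window. A minus sign or "upstream" is relative to the gene's strand and to an annotated TSS, which can lie inside the gene. Words were counted on both strands within 50 bp. Members were set against the other rows by Fisher's exact test, two-sided, adjusted by Benjamini-Hochberg within each family at 0.05, and intervals are exact Clopper-Pearson at 95% that cover counting error only. Neighbouring summits are not independent, so the p-values hold for the present list of peaks only. The members, the 23 gene lists and the motifs were chosen with earlier results of these data known. Genes were named by rule (the nearest genes of the 30 strongest members, the 3 strongest of each class, list genes, the widest rank ratios, and rows at the boundary), and those named outside it are marked or serve to place words and peaks. The software was scipy 1.17.1 with pandas 2.3.3 and numpy 2.4.6 under Python 3.11.15, and figures were drawn in matplotlib 3.10.9. The word test was tested on simulated data.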

Additional observations from a re-analysis of the deposited data

How the results depend on the processing

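The promoter share, not called in the main list, had an unadjusted exact p under 0.05 with either replicate left out. Its odds ratios there were 0.746 and 1.43, the first a change of direction. No annotation class passed the adjusted threshold with either replicate left out. The X odds ratio was 0.568 to 0.605 with either replicate left out, 0.934 in the first 400 rows and 1.67, a change of direction, with X signals divided by 0.75. The share with another summit within 5 kb had odds ratios of 1.33 at 1 kb and 1.43 at 10 kb, neither called. The share with TSSs on both strands had an unadjusted exact p under 0.05 in 3 settings. These were without the Drat locus and with 1 summit per interval (odds ratio 1.48 each), and without both loci (1.48). The count of called 6-mers, 4 in the main list, was 2 without the locus at cbt and ush, 2 without both loci, 1 to 15 with either replicate left out, 1 within 25 bp, 2 within 100 bp, 2 in promoter windows and 1 without ribosomal protein promoters. The count of called motifs, also 4, was 1 in the first 100 rows, 2 in the first 400, 2 within 25 bp, 0 in promoter windows by Fisher's exact test (2 at an unadjusted p under 0.05), 2 outside them and 1 without ribosomal protein promoters. The odds ratio of intron summits was 0.676 to 1.23 with either replicate left out, the higher a change of direction, and that of intergenic summits to 0.984 in the first 400 rows and 0.998 with a 250 bp window. The cause of these changes was not tested, although smaller sets hold fewer summits. The E-box CACGTG odds ratio ran from 1.88 to 5.22 over 13 alternatives. Adjusted over the 23 motifs it lost its call in promoter windows only, but adjusted over the 2080 6-mers it lost it in 11 of the 13, for example without the locus at cbt and ush (adjusted p = 0.287) and without the Drat locus (0.0786, both Fisher's exact test). The share upstream of the TSS kept its direction and an exact p under 0.05 in all 12 of its alternatives. The share of ribosomal protein genes, which was not tested, was 28.3% in 3 alternatives. Their 26 member summits lie within 64 bp of a TSS and outside both loci, so these settings could remove none of them. Settings outside promoter windows, without ribosomal protein promoters and with the X correction were chosen after seeing the data. No paired analysis was possible because there is 1 group. Unknown depth limits every signal and rank.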

Other observations

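The width of the peaks moved with their rank. A width of exactly 376 bp was found in 2 of the 200 strongest peaks (1%) and in 2424 of the 4210 others (57.6%), and 7 members, in only 3 peak intervals at Drat, cbt and CG3348, were wider than 1000 bp, against 4 of the others. Widths are the authors' and depend on the same signal that chose the members, so no test was made.

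The biotype of the nearest gene was protein-coding for 180 members (90%) and 88.8% of the others, and noncoding RNA for 18 members (9%) and 9.67% of the others. These shares are close to each other.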
